A study of Mus musculus with 8 samples.

Results

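The 10 genes described here form the core of the Notch pathway: the receptors Notch1, Notch2 and Notch3, the ligands Jag1, Jag2 and Dll1, the nuclear partners Rbpj and Maml1, and the target genes Hes1 and Hey1. They were chosen by name from the 26180 genes with a curated RefSeq transcript. Peaks were looked for at each promoter (1 kb upstream to 100 bp downstream of a transcription start site, TSS), in the rest of the gene body, and within 50 kb outside the gene. Chromatin was taken from wild-type newborn mice (postnatal day 0.5), from total epidermis, with no mutant or treatment among the samples. MOF, the acetyltransferase of lysine 16 on histone H4, was mapped by ChIPseq, in which fixed and sheared chromatin is pulled down. Rfx2, a transcription factor of ciliary genes, and the histone marks H3K4me3 (active promoters) and H3K27ac (active promoters and enhancers) were mapped by Cut&Run, in which an antibody guides a nuclease to its target. Each of the 4 peak lists came from 1 library, so no value below carries a replicate error and no test between samples was possible. Total epidermis holds several cell types and layers, and a peak cannot be assigned to any of them.

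Notch signaling passes between touching cells. A Delta or Jagged ligand on a cell binds a Notch receptor on its neighbor, the receptor is cleaved, and its freed intracellular part enters the nucleus, where it joins the DNA-binding protein RBPJ and a Mastermind coactivator to turn on Hes and Hey repressor genes. In the epidermis the pathway is known for driving basal keratinocytes into the spinous layer and for its use in hair follicles.

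The sequences below come from promoters and introns described in the results. The 250 bases before the TSS of Notch2 (chr3:98013288-98013537, plus strand) belonged to a promoter with MOF, H3K4me3 and H3K27ac peaks, and those of Notch3 (chr17:32166891-32167140, minus strand) to a promoter with a peak in no list. Capitals mark every CG dinucleotide, of which there were 34 at Notch2 and 17 at Notch3. All sequences are from RefSeq on GRCm38.p6, the assembly that browsers call mm10, and run 5′ to 3′ on the strand of the gene.
Notch2 promoter: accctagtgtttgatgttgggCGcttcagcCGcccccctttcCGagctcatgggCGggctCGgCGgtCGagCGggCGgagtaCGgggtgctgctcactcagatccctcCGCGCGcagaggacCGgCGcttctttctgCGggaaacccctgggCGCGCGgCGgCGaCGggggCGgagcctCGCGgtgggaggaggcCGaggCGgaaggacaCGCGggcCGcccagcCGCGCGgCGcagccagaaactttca
Notch3 promoter: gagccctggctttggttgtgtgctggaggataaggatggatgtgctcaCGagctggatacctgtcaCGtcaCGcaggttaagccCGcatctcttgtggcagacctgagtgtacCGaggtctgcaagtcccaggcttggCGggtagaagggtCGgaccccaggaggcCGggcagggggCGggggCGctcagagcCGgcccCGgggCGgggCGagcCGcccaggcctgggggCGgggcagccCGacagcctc

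The 250 bases before the TSS of Rbpj that lay under peaks (chr5:53590096-53590345, plus strand) are shown because the encoded factor has its own core motif there. Capitals mark TGGGAA and its reverse complement, 1 of each.
Rbpj promoter: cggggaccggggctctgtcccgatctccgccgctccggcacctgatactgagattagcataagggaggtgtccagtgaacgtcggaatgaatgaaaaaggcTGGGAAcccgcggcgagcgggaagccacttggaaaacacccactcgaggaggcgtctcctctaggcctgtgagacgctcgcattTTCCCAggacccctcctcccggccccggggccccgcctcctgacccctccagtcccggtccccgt

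A pair of MOF peaks lay in introns, in Notch2 (chr3:98024409-98024680, plus strand) and in Maml1 (chr11:50275744-50275987, minus strand). They are printed whole because they are the intronic MOF peaks of the members, the first without either mark and the other with H3K27ac. CG is again in capitals, with 11 in the Notch2 peak and 1 in the Maml1 peak.
Notch2 MOF intron peak: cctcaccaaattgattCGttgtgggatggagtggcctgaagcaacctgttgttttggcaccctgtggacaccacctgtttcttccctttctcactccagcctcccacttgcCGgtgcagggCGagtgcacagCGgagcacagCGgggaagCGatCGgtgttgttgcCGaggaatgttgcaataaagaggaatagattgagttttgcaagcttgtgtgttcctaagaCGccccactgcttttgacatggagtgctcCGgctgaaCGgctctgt
Maml1 MOF intron peak: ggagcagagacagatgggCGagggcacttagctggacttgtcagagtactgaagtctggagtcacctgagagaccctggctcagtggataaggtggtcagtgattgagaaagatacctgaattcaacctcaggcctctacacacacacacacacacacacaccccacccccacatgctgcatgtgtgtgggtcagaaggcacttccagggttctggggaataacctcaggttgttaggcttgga

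MOF was found at the promoters of Notch2, Jag1, Rbpj and Maml1, H3K4me3 at every member promoter except that of Notch3, and H3K27ac at all but those of Notch3 and Hey1. No member promoter held Rfx2. The 4 promoters with MOF all held both marks as well. Of the other 6, Notch1, Jag2, Dll1 and Hes1 held both marks without MOF, Hey1 held H3K4me3 alone, and Notch3 held nothing.

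MOF was at 4 of 10 member promoters and at 23.7% of those of all annotated genes, and Rfx2 at 0 and at 1.21%. H3K4me3 was at 9 of 10 and at 54.0%, and H3K27ac at 8 of 10 and at 44.1%. Among the 14132 genes with H3K4me3 at the promoter, 42.0% also had MOF and 79.8% also had H3K27ac, against 4 and 8 of the 9 members with H3K4me3, so that once H3K4me3 was present the members lay close to the share of all genes. MOF with both marks and no Rfx2 was the state of 20.3% of all genes and 4 members. Both marks without MOF or Rfx2 was the state of 21.6% of all genes and 4 members. H3K4me3 alone was the state of 9.25% of all genes and 1 member, and no peak in any list that of 44.1% and 1 member. When a peak had to have its centre inside the promoter window, H3K4me3 was left at 4 members (25.5% of all genes), H3K27ac at 4 (26.2%) and MOF at 3 (14.7%). With the 50% of its list of highest significance, H3K27ac was left at 5 (36.7%).

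**Figure D1:**
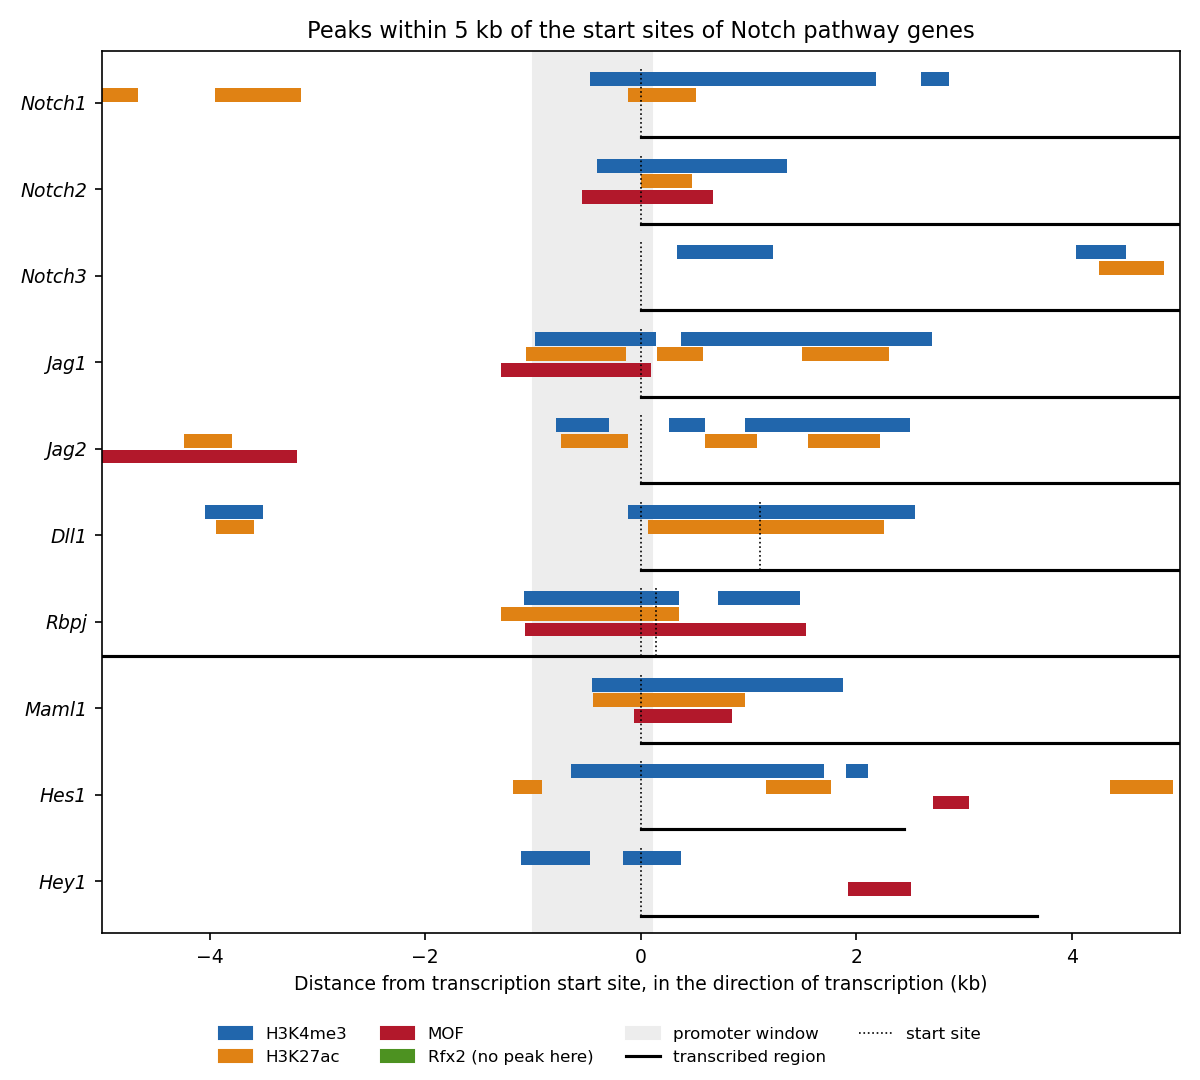
Peaks of each list (colored bars) within 5 kb of the reference TSS of the 10 genes, with distance in kb along the direction of transcription on the x axis, the promoter window in gray, start sites dotted and the transcribed region as a black line. MOF bars crossed the TSS at Notch2, Jag1, Rbpj and Maml1 only, and at Notch3 every bar began downstream of the window.

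Among the receptors, Notch2 was the single gene with MOF at its promoter. Notch2 spans 136830 bp on chromosome 3 (98013538 to 98150367, plus strand). Its MOF peak (98012994 to 98014211, 1218 bp) ran from 544 bp upstream to 673 bp downstream of the TSS and shared 1084 bp with the H3K4me3 peak. The MOF list gives a score of unstated scale, usable only as a rank within that list, and the score of 846 stood at percentile 80.8. Fold enrichment below is that of the authors' peak caller and is ranked only within its own list. H3K4me3 at Notch2 spanned 1768 bp with a fold enrichment of 7.61 (percentile 61.0), and H3K27ac spanned 479 bp with 5.40 (percentile 60.3).

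Notch2, the longest member, also held peaks inside the gene body. A further MOF peak of 272 bp lay in an intron, 10871 bp from the TSS, with a score of 914 (percentile 83.5), higher in rank than the promoter peak, and it overlapped neither mark. The introns held 5 H3K4me3 peaks with fold enrichments of 3.79 to 8.12 and 4 H3K27ac peaks. The widest of these was an H3K27ac peak of 1384 bp (98098146 to 98099529) with a fold enrichment of 4.63, which contained an H3K4me3 peak of 200 bp.

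Notch1, the receptor with a known role in spinous differentiation, had wide H3K4me3 and no MOF peak at its promoter. The gene lies on chromosome 2 (26457902 to 26503822, minus strand). H3K4me3 covered 2654 bp (26501639 to 26504292), from 470 bp upstream to 2183 bp downstream of the TSS, which put it at percentile 99.0 of the list by width and 11.2 by fold enrichment (4.03). The low rank by fold enrichment went with a −log10 q-value of 38.7. H3K27ac spanned 628 bp across the TSS with a fold enrichment of 3.80 (percentile 21.3). The window is shared with Gm35978, which starts 105 bp away on the plus strand, and peaks there cannot be divided between these genes.

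Notch3, on chromosome 17 (32120820 to 32166890, minus strand), was the only member without a peak of any list in the promoter window. Its nearest H3K4me3 peak began 335 bp downstream of the TSS in an intron and spanned 892 bp (32165664 to 32166555) with a fold enrichment of 5.60 (percentile 36.9). The gene therefore counts as having H3K4me3 at the promoter once the window is widened to 1 kb on either side, where the count over members was 10. Further inside were an H3K4me3 peak of 471 bp that overlapped H3K27ac (605 bp, fold enrichment 4.31) about 4 kb from the TSS, and an H3K4me3 peak of 326 bp in a coding exon, 23225 bp from the TSS, with a fold enrichment of 10.8 (percentile 88.1). That exon peak was the highest H3K4me3 peak in the body of any member. From the Notch3 TSS to the nearest MOF peak it was 22193 bp.

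Of the ligands, Jag1 had MOF at its promoter, and Jag2 and Dll1 had both marks without it. Jag1 lies on chromosome 2 (137081451 to 137116520, minus strand). Its MOF peak (137116423 to 137117819, 1397 bp) lay almost wholly upstream, from 1299 bp before to 97 bp after the TSS, with the highest MOF score at a member promoter (864, percentile 81.6). H3K4me3 there was split into a promoter peak of 1123 bp (fold enrichment 3.23, percentile 4.69) and a peak of 2336 bp that began 369 bp into the gene (3.57, percentile 6.46). Together they covered 3255 bp within 2500 bp of the TSS, more than at any other member. H3K27ac was similarly broken up, with 933 bp upstream of the TSS (fold enrichment 4.58) and 5 peaks in the gene body with fold enrichments of 3.14 to 4.24.

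Jag2, on chromosome 12 (112908590 to 112929495, minus strand), had no peak over the TSS itself. H3K4me3 lay on either side of it, as 486 bp ending 299 bp upstream (fold enrichment 4.29, percentile 15.9) and as peaks of 332 bp and 1536 bp that began 265 and 966 bp downstream. H3K27ac ended 118 bp upstream of the TSS, with the lowest fold enrichment of the 8 members (2.87, percentile 3.49). The 300 bases around this TSS, 250 before and 50 after, had the highest G and C content of the member start sites (86.0%), and whether base composition bears on the gap was not tested. The nearest MOF peak, 2116 bp wide with a score of 432, began 3190 bp upstream and overlapped an H3K27ac peak of 441 bp (112933290 to 112933730).

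Dll1, on chromosome 17 (15367354 to 15376932, minus strand), had the widest H3K4me3 and H3K27ac promoter peaks of the 10 genes. H3K4me3 covered 2660 bp (percentile 99.0) with a fold enrichment of 4.90, and H3K27ac covered 2185 bp (percentile 99.8) with 4.07. The H3K4me3 peak spanned both annotated start sites, at 15376932 and 15375823. MOF was absent from the gene, and its nearest peak, 18038 bp from the TSS, lay at the promoter of the neighboring gene Fam120b.

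Both nuclear partners had MOF at the promoter together with the highest H3K27ac among the members. Rbpj, which encodes the DNA-binding protein of the pathway, extends over 101667 bp on chromosome 5 (53555779 to 53657445, plus strand) and has 3 curated start sites. Peaks of MOF and of both marks lay at the downstream start sites (53590346 and 53590486), and no list had a peak at the upstream start site (53555779). Its MOF peak (53589276 to 53591876) was the widest at a member promoter, with 2601 bp (percentile 99.1) and a score of 712 (percentile 66.2). It overlapped an H3K4me3 peak of 1441 bp with a fold enrichment of 5.65 and another of 758 bp with 4.43, and an H3K27ac peak of 1655 bp with 7.88 (percentile 88.5).

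Maml1 encodes a Mastermind coactivator and lies on chromosome 11 (50255634 to 50292336, minus strand). Its MOF peak of 909 bp (50291493 to 50292401) was wholly inside an H3K4me3 peak of 2328 bp with a fold enrichment of 7.29, and the score of 619 was the lowest of the 4 (percentile 53.8). H3K27ac spanned 1406 bp with a fold enrichment of 7.87 (percentile 88.5). The intronic MOF peak of 244 bp had a score of 651 (percentile 59.1) and, unlike that of Notch2, overlapped an H3K27ac peak of 402 bp (50275804 to 50276205, fold enrichment 4.26).

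The target genes had no MOF at the promoter, although a MOF peak lay within 3 kb of each TSS. Hes1, on chromosome 16 (30065357 to 30067796, plus strand), carried an H3K4me3 peak of 2348 bp over most of its 2440 bp, with a low fold enrichment (3.32, percentile 5.16). H3K27ac spanned 262 bp ending 920 bp upstream of the TSS and 601 bp inside the gene, most of it within the H3K4me3 peak, at fold enrichments of 3.03 and 2.73. The promoter H3K27ac peak of Hes1 did not overlap H3K4me3. A MOF peak of 335 bp (30068066 to 30068400, score 486) lay 270 bp past the end of the gene and overlapped neither mark.

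Hey1, on chromosome 3 (8663359 to 8667038, minus strand), was unlike the other members. Its H3K4me3 came as narrow peaks of 540 and 644 bp with the highest fold enrichments at a member promoter, 8.71 and 8.16 (percentiles 72.4 and 67.1). The nearest H3K27ac peak was 256139 bp from its TSS. Its MOF peak of 585 bp (8664527 to 8665111, score 651) lay in a coding exon, 1927 bp downstream of the TSS, and overlapped neither mark. Hey1 is therefore counted with MOF at the promoter only when the window reaches 2.5 kb on either side, where the member count was 5.

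**Figure D2:**
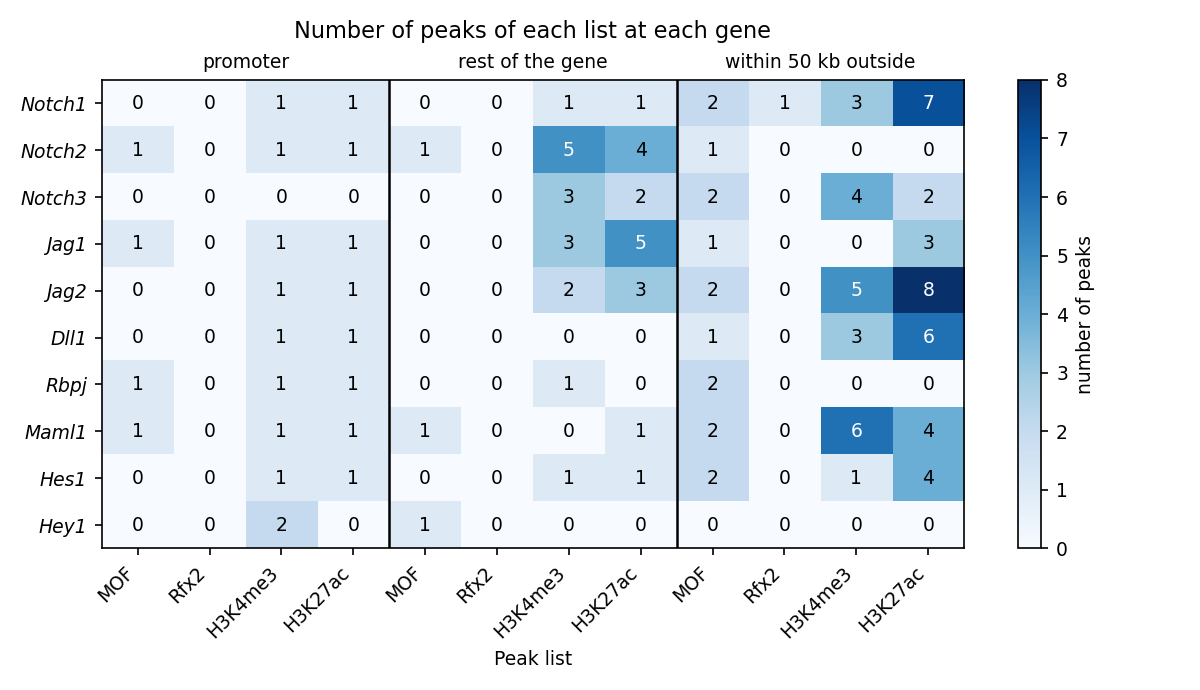
Number of peaks of each list (columns) in each zone of each gene (rows), with darker cells for more peaks. Rfx2 had a single peak, near Notch1, and Notch2, Rbpj and Hey1 had no peak of either mark within 50 kb outside the gene.

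Member promoters with H3K4me3 tended to hold wide peaks of low fold enrichment. The widest promoter peak had a median of 1768 bp over the 9 members and 1319 bp over all 14132 genes with H3K4me3 at the promoter, and 6 of 9 members were wider than the latter. The highest fold enrichment had a median of 4.90 over the members and 8.04 over all genes, and Hey1 alone exceeded the latter. At Notch1, Dll1, Maml1 and Hes1 the peak was at least 2000 bp wide with a fold enrichment below the median, a state shared by 12.4% of all genes with H3K4me3. Peaks that wide were at 12.8% of them whatever the fold enrichment, so nearly all wide promoter peaks were also low. Over the list as a whole, the 1499 H3K4me3 peaks of at least 2000 bp had a median fold enrichment of 5.59, against 6.63 for all peaks. Among the other pathway genes, the median fold enrichment at the promoter was 8.15 with MOF (17 genes) and 6.21 without (28 genes). Their median widths were 1474 and 1366 bp. In mixed epidermal cells, a mark carried by few cells and a weak mark carried by many cannot be told apart.

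**Figure D3:**
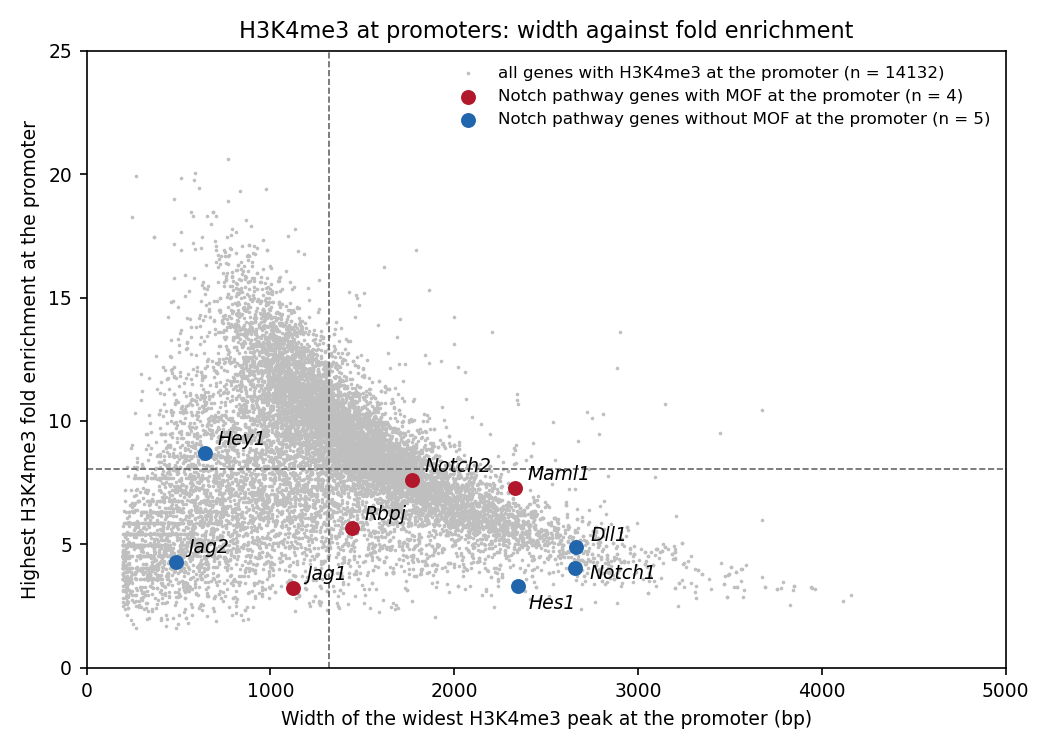
Width of the widest H3K4me3 promoter peak (x axis, bp) against the highest H3K4me3 fold enrichment at the promoter (y axis), for 9 Notch pathway genes (large points, red with MOF and blue without) and 14132 genes (gray), with dashed lines at the medians of all genes. Hey1 was the only member above the horizontal line at 8.04, and Notch1, Dll1, Maml1 and Hes1 lay at the far right below it.

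The fold enrichment of H3K27ac at the promoter was higher at every member with MOF than at any member without. Values were 5.40 at Notch2, 4.58 at Jag1, 7.88 at Rbpj and 7.87 at Maml1, with a median of 6.64. Without MOF they were 3.80 at Notch1, 2.87 at Jag2, 4.07 at Dll1 and 3.03 at Hes1, with a median of 3.41. The groups did not overlap, with 4 genes in each. By other measures of the same peaks they did overlap. The −log10 q-value was 7.36 at Notch2, with MOF, but 18.3 at Notch1 and 12.1 at Dll1, without it, and the Notch2 peak was 479 bp wide against 2185 bp at Dll1. Among the 50% of the list of highest significance, Notch2 was lost while Notch1 and Dll1 remained. Over all genes with H3K27ac at the promoter, the median was 7.18 for the 5538 with MOF (quartiles 5.81 and 8.65) and 6.24 for the 6014 without (quartiles 4.87 and 7.78), and those ranges did overlap. All 4 members without MOF lay below the lower quartile of all genes without MOF, and Notch2 and Jag1 lay below that of all genes with MOF. Among the 56 other pathway genes, the medians were 7.91 with MOF (17 genes, 4.44 to 12.2) and 6.21 without (23 genes, 2.22 to 8.57), and the groups overlapped. These are peaks of single libraries at genes chosen by name, and no test of the difference was made.

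For H3K4me3 the members were not separated in this way. Fold enrichments ran from 3.23 to 7.61 with MOF (median 6.47, 4 genes) and from 3.32 to 8.71 without (median 4.29, 5 genes), so that the groups overlapped. The medians over all genes were 8.06 with MOF and 8.02 without.

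**Figure D4:**
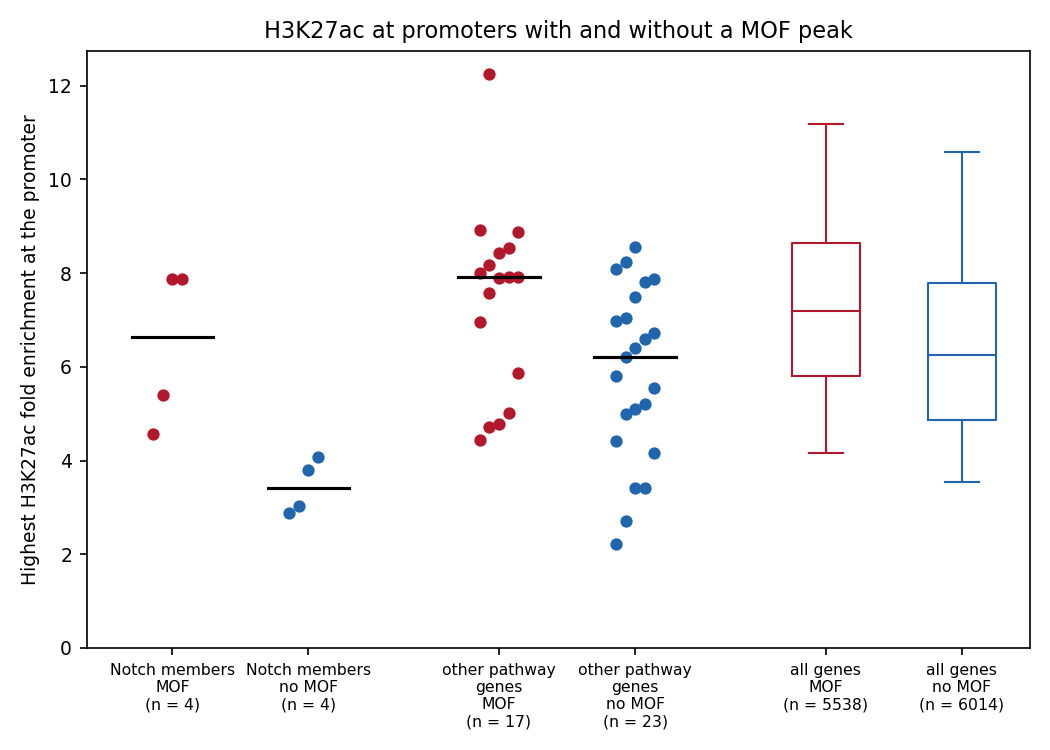
Highest H3K27ac fold enrichment at the promoter (y axis) for genes with and without a MOF promoter peak, shown as points (line at the median) for the 8 members with H3K27ac and for the other pathway genes, and as boxes for all genes (line at the median, box at the quartiles, whiskers from percentile 5 to 95). The 4 members with MOF lay between 4.58 and 7.88, and the 4 without between 2.87 and 4.07.

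Outside the promoter windows, the bodies of the members held 3 MOF, 16 H3K4me3 and 17 H3K27ac peaks. MOF was in the body of 3 members (Notch2, Maml1 and Hey1) and of 17.5% of all genes, Rfx2 in none and in 0.183%, H3K4me3 in 7 and in 20.3%, and H3K27ac in 7 and in 20.5%. Longer genes can hold more peaks, and 7 members were at least 20000 bp long. Of these 7, 2 had MOF, 6 had H3K4me3 and 6 had H3K27ac in the body, against 34.0%, 34.7% and 35.9% of the 10443 genes of that length. Per 10 kb of gene body the members held 0.0684 MOF peaks, 0.365 H3K4me3 peaks and 0.387 H3K27ac peaks, and all genes together 0.0627, 0.0807 and 0.112. Some of the H3K4me3 peaks in these densities lay next to the promoter, and no density was taken without them. The member count was 4 in place of 7 when 2.5 kb on either side of the TSS was set aside (13.1% of all genes). With the 50% of each list of highest significance, H3K4me3 was in the body of 4 members (8.09% of all genes) and H3K27ac in that of 2 (10.2%). The body peaks were mostly low, since 2 of 16 H3K4me3 peaks and 1 of 17 H3K27ac peaks exceeded the median fold enrichment of their list, while all 3 MOF peaks exceeded the median MOF score.

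Within 50 kb outside the genes, MOF peaks lay near 9 members (63.1% of all genes), Rfx2 near 1 (3.63%), H3K4me3 near 6 (69.8%) and H3K27ac near 7 (66.5%). The 15 MOF peaks there were mostly low, and 2 of them exceeded the median score of the list, those in Sec16a (score 615) and at the Fam120b promoter near Dll1 (781). At the promoters of other genes were 3 of the 15, those of Sec16a and 0610009E02Rik near Notch1, Fam120b near Dll1 and Canx near Maml1. H3K27ac overlapped 7 of the 15, and H3K4me3 overlapped 5. With the 50% of the list ranked highest by score, MOF was left near 2 members (43.2% of all genes). Within 10 kb, MOF was near 3 members (22.0%) and H3K4me3 near 2 (33.1%).

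The Rfx2 peak near Notch1 was among the highest of its list. It lay 11962 bp past the end of the gene (26445337 to 26445940, 604 bp), with a fold enrichment of 19.3 (percentile 98.2) and a −log10 q-value of 52.0. It stood at the shared promoter of 0610009E02Rik and Sec16a, the latter a gene of vesicle export from the endoplasmic reticulum, and overlapped MOF and an H3K4me3 peak of 2219 bp but no H3K27ac peak. Once peaks at the promoters of other genes were left out, no member had Rfx2 within 50 kb. The nearest Rfx2 peak to any other member TSS was 210679 bp away, at Jag2.

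H3K27ac outside the genes was found at 34 peaks, of which 22 had an intergenic centre and 11 were at promoters of other genes. Jag2 had 8, Notch1 7 and Dll1 6, whereas Notch2, Rbpj and Hey1 had none. Beside Sec16a, 0610009E02Rik, Fam120b and Canx, the promoters with both marks were those of Inpp5e near Notch1, Ephx3 and Pdxk-ps near Notch3, Nudt14 and Btbd6 near Jag2, and Sqstm1 and Mgat4b near Maml1, while Mir6919 near Maml1 had H3K4me3 alone. The peaks around Hes1 included a pair upstream in introns of the noncoding gene 9030404E10Rik (30024575 to 30025290 and 30034107 to 30034493), with fold enrichments of 7.68 and 7.17, above those of 3.03 and 2.73 at Hes1 itself. Near Dll1, an intergenic peak of 1390 bp (15325851 to 15327240, fold enrichment 5.50) overlapped H3K4me3. Another MOF peak, 28812 bp past Hes1 (30096608 to 30096836, 229 bp, score 579), overlapped an H3K27ac peak with a fold enrichment of 4.58. No data here link any of these peaks to the gene beside it.

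A promoter sequence could be matched for 8 of the 10 members, with 10 start sites, out of 32851 start sites with a sequence. The target genes Hes1 and Hey1 and the upstream start site of Rbpj had no sequence and were not searched. All 10 start sites with a sequence were richer in G and C than the median start site. In the 300 bases around the start site the content ran from 55.7% at Jag1 to 86.0% at Jag2, with a median of 65.8% against 52.7% over all start sites. The number of CG dinucleotides ran from 15 at the upstream start site of Dll1 to 63 at Jag2, with a median of 24.5 against 7. Notch3, without any promoter peak, had 25 and a G and C content of 70.0%, inside the range of the members with peaks, while Notch2 had 41.

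The RBPJ core motif, TGGGAA on either strand in the 250 bases before a start site, was present at 2 of 10 member start sites and at 21.6% of all start sites. Both belonged to Rbpj and lie 140 bp apart, so their windows share sequence. The target genes Hes1 and Hey1 are not among the 10 start sites, so these counts say nothing about them. The longer forms ATGGGAA and GTGGGAA were at 0 member start sites and at 9.52% of all, and within 1000 bases the core was at 8 of 10 member start sites and 63.2% of all. A head-to-head pair of core-like sites (TGNGAA with G, T or A at N, and the reverse complement of such a site 15 to 30 bases further on) was at 0 of 10 and at 0.569% of all. Within 200 bases centered on the summit, the core was present in 9 of 46 H3K27ac peaks (19.6%) and in 19.0% of all H3K27ac peaks. The 46 lay in the bodies and surroundings of the 8 members with a promoter sequence. The H3K27ac peaks of Hes1, 1 in its body and 4 outside, were not among them. A match of letters does not show binding.

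In the wider pathway, 56 further genes were listed by role, and MOF at the promoter was common in the cleavage enzymes and the nuclear complex and absent from the targets. Over the 56 genes, 17 had MOF at the promoter (30.4%), 2 Rfx2 (3.57%), 45 H3K4me3 (80.4%) and 40 H3K27ac (71.4%). The shares of all genes were 23.7%, 1.21%, 54.0% and 44.1%. All 17 with MOF also had both marks. MOF was thus at 17 of the 45 with H3K4me3, beside 42.0% of all genes with H3K4me3. With the peak centre required inside the window, MOF was at 7 of the 56 (12.5%), below the 14.7% of all genes under that rule, where it had been above the 23.7% of all genes. H3K4me3 was then at 27 (48.2%, against 25.5% of all genes) and H3K27ac at 22 (39.3%, against 26.2%). With the 10 members included, MOF was at 7 of 9 cleavage enzymes, 6 of 8 genes of the nuclear complex, 3 of 9 corepressors, 3 of 12 ubiquitin ligases and trafficking genes, 1 of 4 receptors, 1 of 8 ligands, 0 of 5 glycosyltransferases and 0 of 11 targets. The counts per role are small and are given for an overlap of at least 1 bp only, not for the peak centre. Roles also differed in H3K4me3, which was at 9 of 9 cleavage enzymes and 6 of 11 targets.

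The cleavage enzymes with MOF included the sheddases Adam10 (score 690) and Adam17 (824) and the γ-secretase genes Psen2 (581), Ncstn (1352), Aph1b (1253) and Psenen (1167). γ-Secretase is the complex that frees the intracellular part of Notch. Aph1a and the protease gene Furin had both marks without MOF. In the nuclear complex, Snw1, which encodes a nuclear partner of RBPJ, had the highest MOF score of the pathway (1659). The further genes there with MOF were the acetyltransferase gene Ep300 (760), the coactivator gene Maml2 (590) and the acetyltransferase gene Kat2b (379), beside the members Rbpj (712) and Maml1 (619). Corepressors with MOF were Hdac1 (505), Ctbp2 (947) and Cir1 (449), and the ubiquitin ligases were Mib2 (588), Dtx2 (867) and Itch (825).

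Rfx2 was at the promoters of Mib2, a ligase that acts on Notch ligands, and Fbxw7, which targets the intracellular part of Notch for degradation. Its fold enrichments there were 20.4 and 7.48. Mib2 had MOF as well and Fbxw7 had not, and both had H3K4me3 and H3K27ac. H3K4me3 was missing from the promoters of the receptor Notch4, the ligands Dll3, Dlk1 and Dner, the RBPJ-like gene Rbpjl, the targets Hes3, Hes5, Hes7, Heyl and Dtx1, and the glycosyltransferase Mfng. These 11 promoters held no peak of any list, which was the state of 44.1% of all genes. Among the other targets, Hes6, Hey2 and Nrarp had both marks and Hes2 had H3K4me3 alone.

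**Figure D5:**
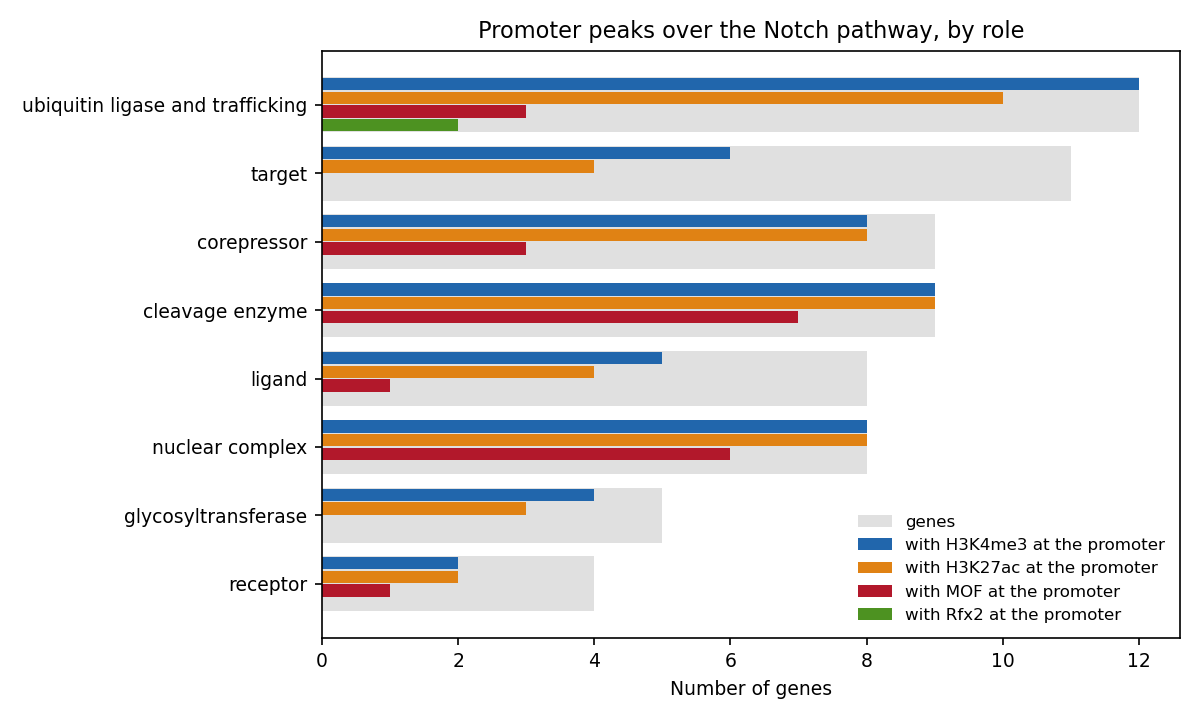
Number of genes (x axis) of the Notch pathway in each role, 66 in all, with gray bars for all genes of the role and colored bars for those with a peak of each list at the promoter. MOF reached 7 of 9 cleavage enzymes and 6 of 8 nuclear complex genes but 0 of 11 targets.

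The labelled tissue was checked against marker genes. H3K4me3 was at the promoters of 3 of 6 keratinocyte markers, 2 of 4 melanocyte, 2 of 4 dermal fibroblast and 1 of 3 endothelial genes, and at the promoter or in the body of 6, 3, 3 and 2 of them. Krt5, Krt14 and Trp63 had it at the promoter in peaks of 2710, 2421 and 3941 bp with fold enrichments of 3.51, 3.98 and 3.29. The immune markers Ptprc, Cd207 and Cd3e had no peak of any list at the promoter or in the body. H3K27ac was at the promoters of 2 keratinocyte, 2 melanocyte, 0 fibroblast and 0 endothelial genes, and at the promoter or in the body of 5, 3, 0 and 1 of them. The endothelial gene was Pecam1, with 8 H3K27ac peaks in the body. The peaks at the melanocyte gene Pmel also lay at the promoter of its neighbor Cdk2, a cell-cycle gene, and cannot be divided between them. MOF was at 1 of 6 keratinocyte (Krt14), 1 of 4 melanocyte (Mitf) and 2 of 4 fibroblast promoters (Col1a2 and Pdgfra). It was at 0 of 3 endothelial and 0 of 3 immune promoters, and at 23.7% of those of all genes. The part of dermal cells in the member peaks was not tested. In all, 17546 peaks were listed for MOF, 337 for Rfx2, 27039 for H3K4me3 and 30736 for H3K27ac. Sequencing depth cannot be read from these lists.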

How the data were processed

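The authors aligned reads to mm10 with Bowtie2 (very sensitive, local) and called peaks on each library by itself with MACS2. Reads of the MOF library were single-end (no fragment model, duplicates limited automatically). The Cut&Run reads were paired-end, and Rfx2, H3K4me3 and H3K27ac peaks were called on whole fragments. A control library was not given in the sources used here. The deposited Rfx2, H3K4me3 and H3K27ac lists give a summit, a score, a ratio (fold enrichment over background) with a −log10 p-value and a −log10 q-value for each peak. The deposited MOF list gives regions with a score of unstated scale and no fold enrichment, and it holds more peaks than the study's methods count for MOF, so it may not be the final or filtered call, and every MOF count and percentile here rests on it. The labels tie the H3K4me3 list to the repeat library while its name does not, so its origin among the 2 H3K4me3 libraries is uncertain. The lists hold no read counts, so depth cannot be read from them and no interval is given. The study states a depth for each library, which differed between libraries and was not used here. H4K16Ac, H3K4me1 and the other libraries were not used here.

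Genes, start sites and exons came from the curated transcripts of the RefSeq annotation of GRCm38.p6. Promoter windows (1 kb before to 100 bp after) were set at every start site, the body was the span of the transcripts outside these windows, and a peak was counted with an overlap of at least 1 bp. Distances were taken to the start site in the direction of transcription. Heights and widths were ranked only within a list. No test was made, and counts are set beside the share of all genes. The 10 members, the 56 further pathway genes and the markers came from general knowledge and were chosen with earlier results of these data known. Named are all members, the further pathway genes with MOF or Rfx2 or without H3K4me3 at the promoter, genes at whose promoter a peak near a member lies, and the highest and widest member peaks. An item that this rule would name enters the counts and is not reported here. Aph1a, Furin, Hes2, Hes6, Hey2, Nrarp, Gm35978, Cdk2, Pecam1 and 9030404E10Rik were chosen after their values were seen. Alternatives were other promoter windows, peak centres, predicted transcripts, other distances and the 50% of each list with the highest significance (MOF by score).

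Python (3.11.15), pandas (2.3.3), numpy (2.4.6), pysam (0.24.0) and matplotlib (3.10.9) were used. On simulated data, bedtools (2.31.1) gave another overlap for 0 of 20000 peaks, and 0 of 3000 planted peaks were put in a wrong zone.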

Additional observations from a re-analysis of the deposited data

How the results depend on the processing

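Of 70 alternative values over 17 counts, 54 stayed within 1.5 times the value as reported and 16 did not. The count of members with MOF at the promoter (4) ran from 3 to 5 over its alternatives, and the count with Rfx2 at the promoter stayed at 0. Requiring the peak centre inside the window, by construction a stricter rule for wide peaks, left H3K4me3 at 4 members in place of 9 and H3K27ac at 4 in place of 8, and among the further pathway genes left MOF at 7 in place of 17, H3K4me3 at 27 in place of 45 and H3K27ac at 22 in place of 40. The 50% of each list of highest significance left H3K27ac at 5 member promoters in place of 8, H3K4me3 in the body of 4 members in place of 7, H3K27ac in the body of 2 in place of 7 and MOF within 50 kb of 2 in place of 9. Within 10 kb in place of 50 kb, MOF was near 3 members in place of 9, H3K4me3 near 2 in place of 6 and Rfx2 near 0 in place of 1. Rfx2 was also near 0 without peaks at other promoters. Setting aside 2.5 kb on either side of the TSS left H3K4me3 in the body of 4 members in place of 7. The RBPJ core motif moved from 2 start sites to 8 in 1 kb and to 0 with ATGGGAA or GTGGGAA. No paired analysis was possible because the peak lists come from 1 library per antibody, and for the same reason no library could be left out. The repeat libraries of the histone marks give no spread here, and peaks below the callers' thresholds in these libraries cannot be told from an absence of signal.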
